A study of Mus musculus with 6 samples.

Results

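Satellite cells are the stem cells of skeletal muscle, and the genes described here mark them or drive their conversion into muscle fibres. The set holds 10 of the 24532 genes in the deposited table: Pax7, Myf5, Myf6, Myod1, Myog, Cdh15, Mef2c, Mef2d, Mymk and Vcam1. They were chosen by symbol. Of these, 9 were listed under these symbols, and Mymk was found by its Entrez identifier, since the table lists it under its older symbol Tmem8c. RNA came from whole gastrocnemius, the large calf muscle, of C57BL/6 mice aged 12 weeks. In 3 knockout mice, both Usp21 alleles were floxed and Ckmm-Cre was present, which expresses Cre recombinase from the promoter of muscle creatine kinase, a gene of differentiated muscle. The 3 control mice carried the floxed Usp21 alleles without Cre. Usp21 encodes a protease that removes ubiquitin from proteins, and the series asks what its loss does to the muscle transcriptome.

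In the textbook order, Pax7 marks the quiescent satellite cell, Myf5 and Myod1 commit it to the muscle lineage, Myog starts differentiation, and Mymk lets the resulting myoblasts fuse. Myf6 and the MEF2 factors act in the differentiated fibre, and Cdh15 and Vcam1 are adhesion proteins at the cell surface. In healthy adult muscle most RNA comes from fibres, and satellite cells are a small minority of the nuclei. The creatine kinase promoter turns on with differentiation, so this Cre driver is used to recombine fibres and not quiescent satellite cells.

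Libraries held between 48658436 and 67332846 counts. The 11 fast fibre genes fixed as a check of the tissue took 20.2% to 23.9% of each library, with Ckm between 22601 and 34506 CPM (counts scaled to library size with TMM factors) and Acta1 between 34757 and 43911 CPM. As a check of the labels, Usp21 was at 9.08, 7.19 and 7.47 CPM in the knockouts, against 19.3, 19.3 and 19.2 CPM in controls 1 to 3 (edgeR adjusted p = 0.0355). Control 3 stood apart in slow fibre genes, whose 10 members summed to 191 CPM there and to between 829 and 1839 CPM in the other 5 libraries.

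None of the 9 members tested was called at an edgeR adjusted p under 0.05, where 0.0567% of all 14109 genes tested were called. DESeq2, which called 2.1% of genes, and limma-voom also called 0 members. At an unadjusted p under 0.05 edgeR had 1 member, Vcam1, which was higher in knockouts; 11.6% of all genes met that level, and 6.56% met it with higher values. The knockout and control libraries did not overlap in 2 members, Vcam1 (higher in knockouts) and Myod1 (lower), and 17.3% of all genes did not overlap. Log2 fold changes, knockout minus control throughout, were positive for 3 members and negative for 6, with a median of -0.088, beside -0.0037 over all genes tested. Mymk had too few counts for the filter and was not tested.

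**Figure D1:**
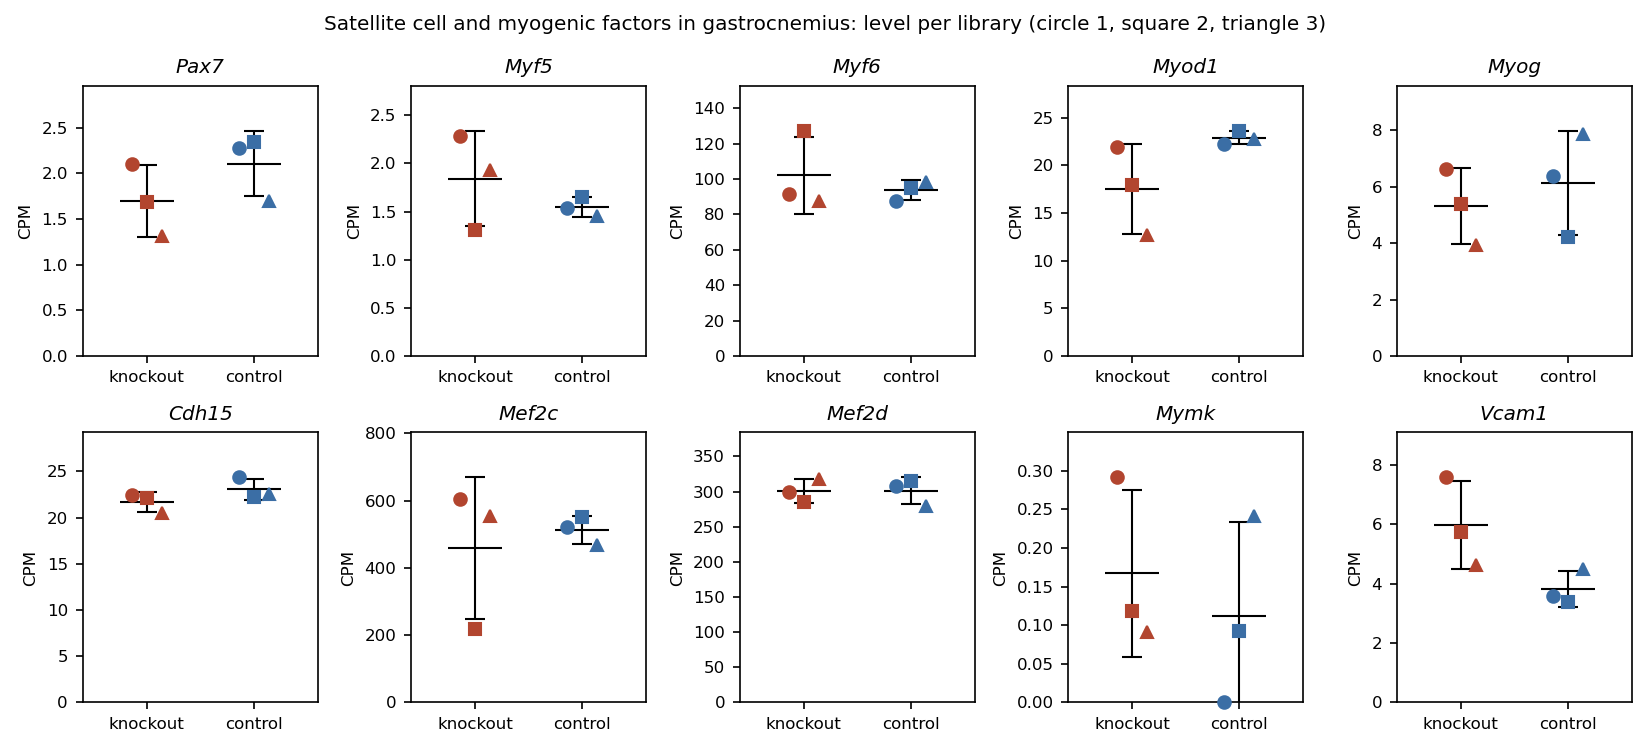
Level of each gene in CPM (vertical axis, from 0) in the 3 knockout and 3 control libraries; circles, squares and triangles are libraries 1, 2 and 3, and bars give the mean and SD. Vcam1 lies between 4.64 and 7.58 CPM in knockouts and between 3.40 and 4.51 CPM in controls, while Mef2c is at 219 CPM in knockout 2 alone.

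Upstream letters are shown for Myog and Cdh15, the members whose windows hold the most matches to the letters searched for. For Myog that count includes a run known from its own promoter. Myogenic basic helix-loop-helix proteins (Myf5, Myod1, Myog, Myf6) bind E-boxes, and MEF2 proteins bind A/T-rich sites. The RefSeq promoter table, whose build is GRCm38.p6 (mm10), held 8 start sites of 6 members; Myf6, Myod1, Mymk and Vcam1 were the others. The 250 bases before each start site were searched for the E-box letters CANNTG, which read the same on both strands, and for CTATATTTA on both strands, an A/T-rich run known from the Myog promoter. The match of this run in Myog was therefore fixed in advance. Myog is shown on the plus strand, chr1:134289754-134290003, and Cdh15 on the plus strand, chr8:122848124-122848373, each 5′ to 3′ with the matches in capitals.
Myog: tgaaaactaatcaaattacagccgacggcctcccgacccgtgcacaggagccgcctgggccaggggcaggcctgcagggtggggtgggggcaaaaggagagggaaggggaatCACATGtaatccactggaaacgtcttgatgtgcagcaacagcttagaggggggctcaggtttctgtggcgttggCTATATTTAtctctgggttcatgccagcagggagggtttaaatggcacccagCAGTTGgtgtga
Cdh15: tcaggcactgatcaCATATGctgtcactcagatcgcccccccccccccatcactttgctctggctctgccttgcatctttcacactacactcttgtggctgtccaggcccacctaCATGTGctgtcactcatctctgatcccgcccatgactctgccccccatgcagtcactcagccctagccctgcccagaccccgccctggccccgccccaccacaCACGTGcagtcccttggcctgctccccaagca

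The Myog window held 2 E-boxes, at -138 and -12 counted back from the start site, and the A/T-rich run at -64. The Cdh15 window held 3 E-boxes, at -236, -135 and -32, and no match to the run. No matches overlapped one another. Of 32536 distinct promoter windows of this length, 66.2% held at least 1 E-box, 31.7% at least 2 and 12.2% at least 3, while 0.184% held the A/T-rich run. Because the run was known from Myog, this last share is no measure of how unusual Myog is. The windows of Pax7, Myf5 and Mef2d held no E-box and no copy of this exact run, and other A/T-rich sites were not searched for. Of the 3 Mef2c windows, 2 held an E-box, and the first held 2, as many as Myog. These matches are letters only; binding was not measured.

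The members spanned a wide range of levels, shown here per transcript length as deposited FPKM. Mef2c averaged 70.3 ± 33.6 FPKM in knockouts and 82.0 ± 9.92 FPKM in controls (SD, n = 3 each), and Myf6 averaged 78.3 ± 13.7 FPKM in knockouts and 75.8 ± 4.44 FPKM in controls (SD, n = 3 each). Mef2d followed at 53.5 FPKM in knockouts and 56.3 FPKM in controls. These fibre factors stood above 92% of tested genes by control FPKM, with Mef2d lowest at the 92.8th percentile. The early factors were far lower, with Myf5 at 0.854 FPKM in knockouts and 0.747 FPKM in controls and Pax7 at 0.381 FPKM in knockouts and 0.497 FPKM in controls. Mymk was lowest at 0.114 FPKM in knockouts and 0.0749 FPKM in controls. By control mean the order was Mef2c, Myf6, Mef2d, Myod1, Cdh15, Myog, Vcam1, Myf5, Pax7 and Mymk. Each gene was above the next in all 6 libraries, except that Mef2c was above Myf6 in 4 libraries and Myod1 above Cdh15 in 5. The ranges over libraries of Mef2c and Myf6, of Myod1 and Cdh15 and of Vcam1 and Myf5 overlapped, so those neighbours did not separate beyond their spread.

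**Figure D2:**
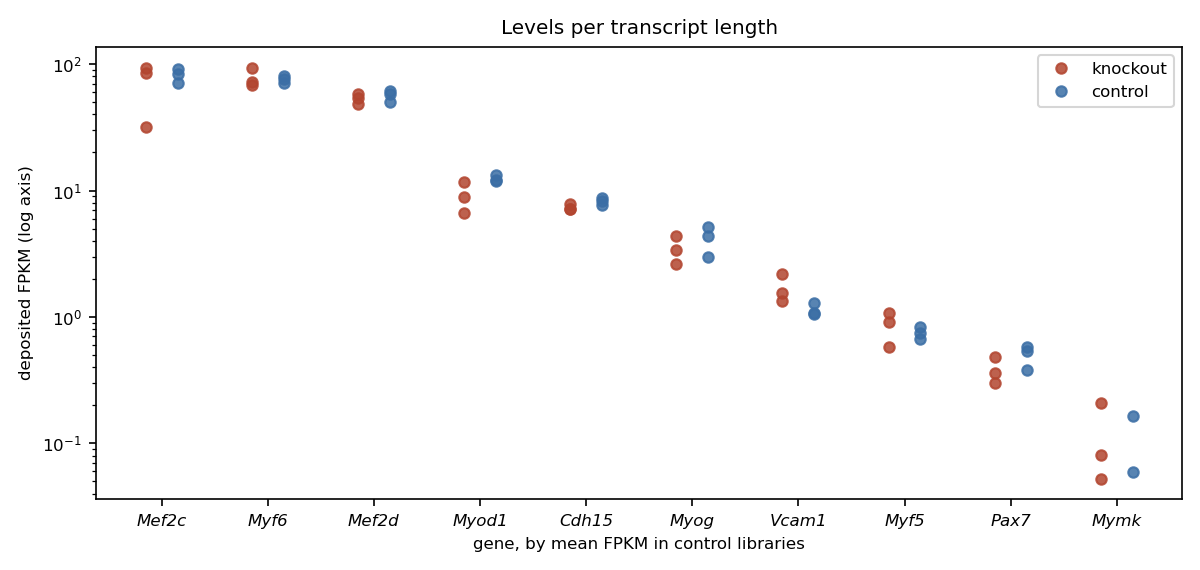
Deposited FPKM (vertical axis, log scale) of each member in every library, knockout left of control, ordered by the control mean. Mef2c, Myf6 and Mef2d lie between 31.8 and 94.0 FPKM, and Pax7 and Mymk lie below 0.6 FPKM; the library of Mymk at 0 (control 1) is not drawn.

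Pax7 (chromosome 4, 139737059 to 139833530) encodes the paired-box transcription factor that maintains satellite cells. It had 137, 85 and 72 counts in knockouts 1 to 3, against 114, 152 and 112 counts in controls 1 to 3. On the CPM scale these were 2.10, 1.68 and 1.31 in knockouts and 2.27, 2.35 and 1.69 in controls. The groups overlapped, with knockout 1 inside the control range and knockout 3 the lowest library. The log2 fold change was -0.30 (SE 0.25, 95% interval -0.89 to 0.28, edgeR adjusted p = 0.678). At 72 to 152 counts, counting error alone was 8.11% to 11.8% of the value. No change in Pax7 was called, and in whole muscle the number of satellite cells and the RNA per cell cannot be told apart.

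Myf5 (chromosome 10, 107482908 to 107486927) encodes the earliest of the myogenic helix-loop-helix factors to appear in the embryo and is also expressed by satellite cells. Its level was 2.29, 1.31 and 1.93 CPM in knockouts 1, 2 and 3, against 1.54, 1.65 and 1.45 CPM in controls 1 to 3. The knockouts lay on both sides of the controls, with knockout 2 the lowest library and knockout 1 the highest. Its log2 fold change was 0.26 (SE 0.26, 95% interval -0.34 to 0.85, edgeR adjusted p = 0.735). Per length, the ratio of Myf5 to Pax7 was 2.23, 1.60 and 3.04 in knockouts and 1.38, 1.45 and 1.76 in controls, so that knockout 2 lay among the controls.

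Myod1 (chromosome 7, 46376474 to 46379092) encodes the factor that commits myoblasts and can turn other cell types into muscle. It was at 21.9, 17.9 and 12.6 CPM in knockouts 1 to 3, against 22.2, 23.6 and 22.8 CPM in controls 1 to 3. Every knockout was below every control, although knockout 1 missed the lowest control by little. The control libraries were close together, with an SD of log2 CPM smaller in only 7.44% of tested genes, whereas 82.5% of tested genes had a smaller SD among the knockouts. Its log2 fold change was -0.38 (SE 0.18, 95% interval -0.81 to 0.043, edgeR adjusted p = 0.472), and an exact two-sided permutation test gave p = 0.1, the smallest that 3 against 3 libraries allow. Lower values without overlap were found in 8.87% of all genes. Without knockout 3 the log2 fold change was -0.20, and without knockout 1 it was -0.59. The unadjusted edgeR p was 0.0712 with all libraries and 0.00866 without knockout 1, while the unadjusted limma p was 0.0356 on log2 of FPKM plus 1 and 0.0346 on log2 of FPKM plus 0.1. Adjusted p-values under the alternatives ran from 0.347 to 0.779.

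Myog (chromosome 1, 134290004 to 134292548) encodes myogenin, which switches myoblasts to terminal differentiation. Its values were 6.63, 5.39 and 3.94 CPM in knockouts 1 to 3 and 6.36, 4.20 and 7.85 CPM in controls 1 to 3. The groups overlapped almost completely, and the controls were the more scattered. The log2 fold change was -0.20 (SE 0.27, 95% interval -0.83 to 0.42, edgeR adjusted p = 0.807), and without control 3, the library low in slow fibre genes, it was 0.016. The ratio of Myod1 to Myog per length was 2.65, 2.65 and 2.57 in knockouts, against 2.79, 4.50 and 2.32 in controls, and the groups overlapped. Myog had 432, 272 and 216 counts in the knockouts, so the closeness of their ratios is not read.

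Myf6 (chromosome 10, 107492848 to 107494723) lies 5920 bases from Myf5 on the same chromosome and encodes the helix-loop-helix factor that dominates in adult fibres. It was at 91.5, 127 and 87.6 CPM in knockouts 1 to 3, against 87.4, 95.0 and 98.4 CPM in controls 1 to 3. Knockout 2 was above all other libraries and the other knockouts lay within the control range. Its log2 fold change was 0.12 (SE 0.15, 95% interval -0.22 to 0.47, edgeR adjusted p = 0.783), and -0.065 without knockout 2. Myf6 relative to Myod1, per length, was 6.19, 10.5 and 10.3 in knockouts and 5.84, 5.98 and 6.43 in controls. Knockouts 2 and 3 stood above every control and knockout 1 lay among them.

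**Figure D3:**
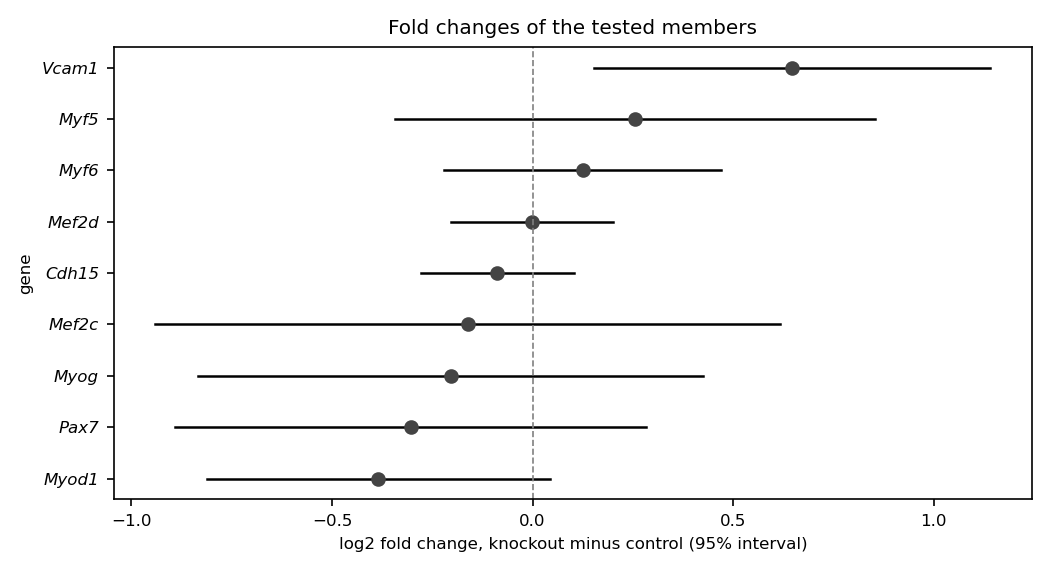
Log2 fold change of each tested member, knockout minus control (horizontal axis), with its 95% interval from the edgeR fit. The intervals of 8 members cross 0, and that of Vcam1 runs from 0.15 to 1.14 before adjustment for the 14109 genes tested.

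The MEF2 factors are MADS-box proteins that act with the myogenic factors on muscle promoters. Mef2c (chromosome 13, 83504017 to 83667079) was at 605, 219 and 554 CPM in knockouts 1 to 3, against 522, 551 and 469 CPM in controls 1 to 3. Knockout 2 was far below every other library, and knockouts 1 and 3 were above every control. The log2 fold change was -0.16 (SE 0.33, 95% interval -0.94 to 0.62, edgeR adjusted p = 0.889) with all libraries and 0.17 without knockout 2. Only 1.67% of tested genes were further below the mean of knockouts 1 and 3 in knockout 2 than Mef2c was, at -1.40 on the log2 scale.

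Mef2d (chromosome 3, 88141941 to 88172091) was among the steadiest members, at 299, 285 and 318 CPM in knockouts 1 to 3 and 308, 316 and 280 CPM in controls 1 to 3. Its log2 fold change was -0.0022 (SE 0.087), and its 95% interval of -0.20 to 0.20 bounds a change in either direction at about 1.15-fold. The ratio of Mef2c to Mef2d per length was 1.72, 0.654 and 1.48 in knockouts against 1.44, 1.49 and 1.43 in controls, so knockout 2 was the library in which Mef2d exceeded Mef2c. An antisense gene, 1700113A16Rik, shares 531 exon bases with Mef2d on the opposite strand; it had 171 counts over all libraries, against 14374 or more for Mef2d in each. Mef2a, the remaining abundant MEF2 factor, was at 178, 178 and 170 CPM in knockouts and 164, 176 and 160 CPM in controls.

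**Figure D4:**
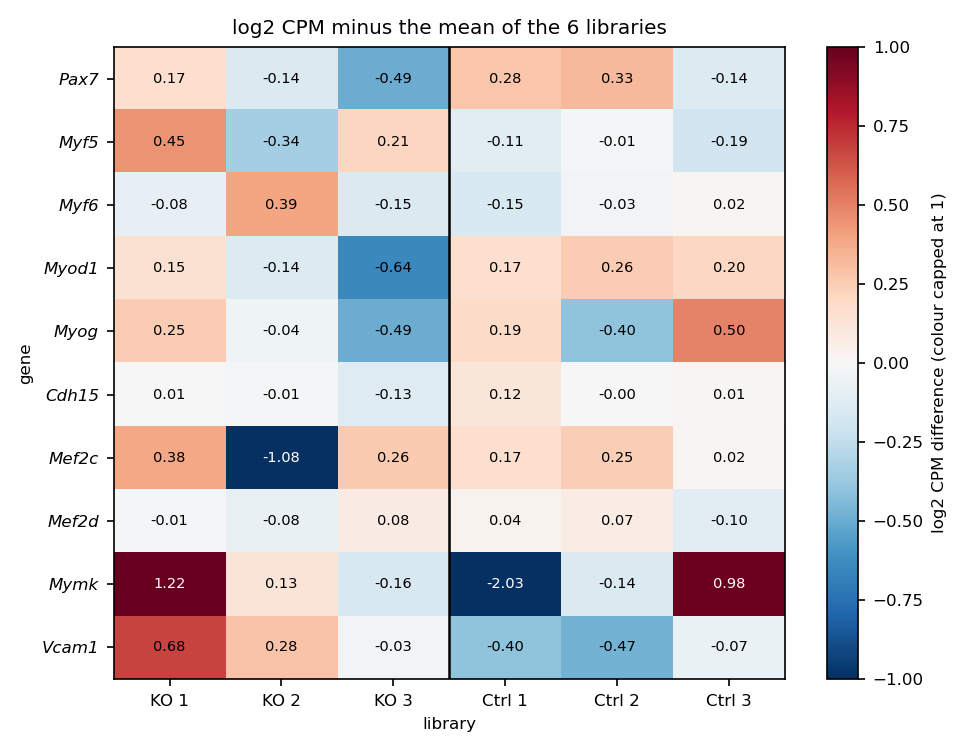
Log2 CPM of each member minus its mean over the 6 libraries, by library (columns, knockouts left of the line) and gene (rows). Knockout 3 is the lowest library for Pax7, Myod1, Myog and Cdh15, and knockout 2 is at -1.08 for Mef2c.

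Cdh15 (chromosome 8, 122848374 to 122867397) encodes M-cadherin, which joins satellite cells to fibres. Its level was 22.5, 22.2 and 20.5 CPM in knockouts 1, 2 and 3, against 24.4, 22.3 and 22.6 CPM in controls 1 to 3. The groups overlapped within a narrow band. The log2 fold change was -0.088 (SE 0.082, 95% interval -0.28 to 0.10, edgeR adjusted p = 0.714), which in fold terms lies between 0.825 and 1.07.

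Vcam1 (chromosome 3, 116110020 to 116129688) encodes an adhesion receptor found on satellite cells and also on activated endothelium and some leukocytes. Its level was 7.58, 5.75 and 4.64 CPM in knockouts 1, 2 and 3, against 3.57, 3.40 and 4.51 CPM in controls 1 to 3. Every knockout was above every control, knockout 3 by little over control 3. Its log2 fold change was 0.65 (SE 0.21, 95% interval 0.15 to 1.14), or 1.57-fold, with an unadjusted edgeR p of 0.0170 and an adjusted p of 0.363. An exact two-sided permutation test gave p = 0.1, the smallest possible here, and higher values without overlap were found in 8.38% of all genes. The unadjusted edgeR p was 0.0692 without knockout 1, 0.0566 without control 1 and 0.0592 without control 2. The ratio of Vcam1 to Pax7 per length was 4.53, 4.32 and 4.48 in knockouts, against 1.98, 1.83 and 3.38 in controls. Only a few chosen ratios were formed, and Vcam1 entered no other. The remaining ones (Mef2c to Mef2d, Myf5 to Pax7, Myod1 to Myog, Myf6 to Myod1 and Cdh15 to Pax7) overlapped between the groups. Ratios of Vcam1 to other members were not formed, so the separation is not read as particular to Pax7. Counting error of Pax7 was 8.54% to 11.8% in knockouts, so the closeness of the knockout ratios is not read. Gm43109, an antisense gene, shares 61 exon bases with Vcam1 on the opposite strand, and the use of strand in counting is not given in the sources used here.

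Markers of other cells that can express Vcam1 are given beside it. The 10 endothelial markers summed to 379, 343 and 369 CPM in knockouts 1 to 3 and 414, 418 and 344 CPM in controls 1 to 3, and 3 of the 10 had a positive log2 fold change (median -0.16), with the growth factor receptor Kdr at -0.65 and Egfl7 at -0.49. The 10 macrophage and leukocyte markers summed to 190, 114 and 173 CPM in knockouts and 109, 188 and 110 CPM in controls, with 9 of 10 positive (median 0.43). Among these Fcer1g was at 0.58. Itgam, an integrin subunit of myeloid cells, was at 9.74, 5.33 and 5.75 CPM in knockouts and 2.71, 4.82 and 3.25 CPM in controls (log2 fold change 0.95, edgeR adjusted p = 0.363). Within this list, Adgre1 was at 0.010 and Csf1r, the only negative marker, at -0.096. The 10 fibro-adipogenic markers summed to 3843, 3367 and 3652 CPM in knockouts and 2990, 3762 and 2970 CPM in controls, with 8 of 10 positive (median 0.19). Col3a1, a fibrillar collagen, was at 0.62 (edgeR adjusted p = 0.295), and Ly6a, a surface antigen of these cells, at 0.51. None of these markers was at 0 in any library, and their part in the Vcam1 values was not tested.

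Mymk (chromosome 2, 27061636 to 27072161) encodes myomaker, the membrane protein required for myoblast fusion. It had 19, 6 and 5 counts in knockouts 1 to 3 and 0, 6 and 16 counts in controls 1 to 3, or 30 counts against 22 in all. The groups overlapped, and the 95% counting interval of the 0 in control 1 reached 3.69 counts. A floor set at 3 counts was 0.0598 CPM in that library. In the fit without a filter its log2 fold change was 0.55 with a 95% interval of -2.04 to 3.15, so no difference was detectable at this depth. Its partner in fusion, Mymx (listed as Gm7325), had 4, 4 and 0 counts in knockouts and 0, 0 and 9 counts in controls.

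**Figure D5:**
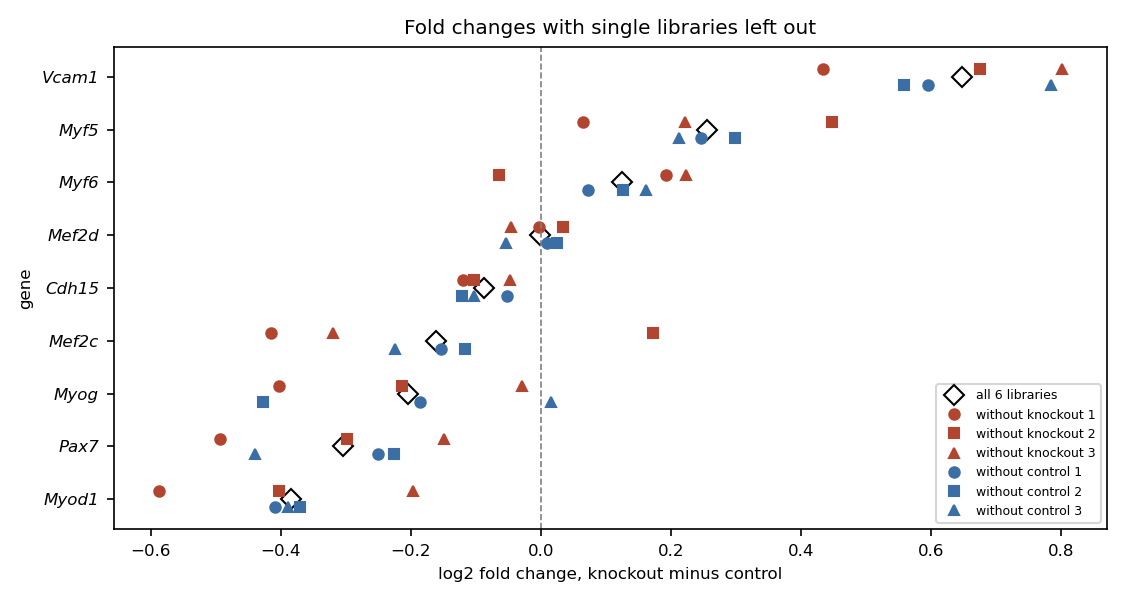
Log2 fold change of each tested member, knockout minus control (horizontal axis), with all libraries (open diamonds) and with each library left out (filled symbols). Vcam1, Myf5, Cdh15, Pax7 and Myod1 keep their sign in every fit, Mef2d stays within -0.053 and 0.034 on both sides of 0, Mef2c turns to 0.17 without knockout 2, Myf6 to -0.065 without knockout 2, and Myog to 0.016 without control 3.

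Other genes of the pathway and of other cell types were taken from lists. Of 146 such genes tested, edgeR called 0 over all genes, limma-voom called 0 and DESeq2 called 5 (Ccnd1, Col3a1, Mki67, Sdc4 and Tcf3), where it called 2.1% of all genes. Of these Mki67 passed the filter on low counts through the knockout libraries, where it is higher. At an unadjusted edgeR p under 0.05 there were 19, or 13.0%, against the 11.6% of all genes. Because the 19 include Mki67 and the low-count division gene Ccna2, this share is a description and no test is read from it. Among 14 tested genes of satellite cells, 6 log2 fold changes were positive and 8 negative (median -0.022). Sdc4, a cell-surface proteoglycan of satellite cells and many other cells, stood at 55.5, 44.6 and 34.8 CPM in knockouts, against 23.7, 24.6 and 18.5 CPM in controls (log2 fold change 1.01, SE 0.18, edgeR adjusted p = 0.194). Fgfr4, a fibroblast growth factor receptor, went the other way, at 2.36, 2.66 and 3.10 CPM in knockouts and 4.05, 3.87 and 4.10 CPM in controls (-0.57, SE 0.16, edgeR adjusted p = 0.325). In both genes the groups did not overlap. Among the 14, 2 did not overlap with higher values and 3 with lower values, and 17.3% of all genes did not overlap. Calcr, the calcitonin receptor of quiescent satellite cells, was at -0.040 (SE 0.30).

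Notch signalling keeps satellite cells quiescent, and 5 of its 11 tested genes were positive and 6 negative (median -0.099). The ligand Dll4 was at -0.53 and the Hes-family gene Hes6 at -0.33. Partners and inhibitors of the helix-loop-helix factors had 5 positive and 5 negative members (median -0.025). Tcf3, which encodes the E proteins that pair with Myod1 and its relatives, stood at 12.4, 14.7 and 13.7 CPM in knockouts, against 19.6, 19.2 and 17.5 CPM in controls (-0.46, SE 0.099, edgeR adjusted p = 0.241), without overlap. Of all genes, 8.87% had lower values without overlap. Bhlhe41, a transcriptional repressor, was at -0.34, and the inhibitors Id1 and Id3 were at 0.13 and 0.0060.

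Six4 and Eya4 encode factors that act upstream of the myogenic genes. Six4 was at -0.57 (SE 0.20, edgeR adjusted p = 0.371) and Eya4 at 0.56 (SE 0.20, edgeR adjusted p = 0.375). Of 5 tested genes of the MEF2 family and its class IIa deacetylase repressors, 4 were positive (median 0.069), with Hdac9 at 0.65 and Hdac4 at 0.30. Of 7 tested genes of fusion and adhesion, 5 were positive (median 0.11). Among these Itgb1 and Itga4, which together form a receptor for Vcam1, were at 0.27 and 0.26, with edgeR adjusted p-values of 0.432 and 0.576.

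Sarcomere genes of development and regeneration had 4 of 6 positive members (median 0.23). Actc1, the cardiac actin used by developing muscle, stood at 387, 637 and 277 CPM in knockouts and 117, 65.0 and 287 CPM in controls (1.47, SE 0.54, edgeR adjusted p = 0.383). Myh8, the perinatal myosin, was at 687, 977 and 701 CPM in knockouts and 576, 616 and 616 CPM in controls (0.39, edgeR adjusted p = 0.384). Knockout 2 was the highest library for both, as it was for Myf6. Genes that respond to denervation had 6 of 8 positive members (median 0.26), with the acetylcholine receptor subunit Chrnb1 at 0.38 and the receptor kinase Musk at 0.36.

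Genes of cell division had 6 positive and 0 negative members among the 6 tested, with a median of 1.10. Some of these, Mki67 among them, passed the filter through the knockout libraries, so their count and median are a description. Mki67, a marker of dividing cells, had 44, 31 and 34 counts in knockouts, against 10, 7 and 10 counts in controls. These were 0.675, 0.614 and 0.621 CPM in knockouts and 0.199, 0.108 and 0.151 CPM in controls, and no test is read from them. Ccnd1, a cyclin of early division, was at 12.6, 10.3 and 5.80 CPM in knockouts and 5.46, 4.83 and 5.19 CPM in controls (0.89, SE 0.26, edgeR adjusted p = 0.342). Top2a, not tested, was at 0.521, 0.515 and 0.164 CPM in knockouts and 0.0598, 0.139 and 0.0454 CPM in controls. On the same list, Pcna was at 0.0034 (edgeR adjusted p = 0.993) and Mcm2 at 0.18 (edgeR adjusted p = 0.715). In whole muscle any dividing cells may be of any type. Macrophage and fibro-adipogenic markers also had mostly positive fold changes, as given beside Vcam1, but the summed CPM of each list overlapped between the groups. A link to the division genes was not tested.

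Smooth muscle and pericyte markers had 4 positive and 4 negative members (median -0.11), with Acta2 at 0.27 and Notch3 at -0.32. Sox10, a transcription factor of Schwann cells, was at -0.37. Adipocyte markers had 5 positive and 1 negative (median 0.28), with Fabp4 at 0.21 and Cidec at 0.63. Fast fibre genes had 6 positive and 5 negative members (median 0.017), with Myh4 at 0.37 and Mylpf at 0.14. Slow fibre genes had 6 positive and 4 negative (median 0.45), with Tpm3 at 0.52 and Csrp3 at -0.74; the slow list is the one in which control 3 was far below the other libraries.

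The genes whose pattern over the 6 libraries was closest to a member were found by the root mean square difference of log2 CPM, each gene centred on its own mean. Closest to Pax7 were Med18 (0.065), Dll1 (0.090) and Tnfaip2 (0.098). Dll1, a Notch ligand, stood at 5.51, 3.87 and 2.92 CPM in knockouts and 5.50, 5.73 and 4.45 CPM in controls, with knockout 3 lowest as for Pax7. Closest to Myog were Klhl25 (0.077), B130034C11Rik (0.10) and Mapk11 (0.11). Klhl25, a kelch-repeat adaptor, stood at 4.98, 4.76 and 3.07 CPM in knockouts and 4.99, 3.55 and 6.28 CPM in controls.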

How the data were processed

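Poly(A)-selected, strand-preserving libraries of 6 mice, 3 knockout and 3 control, were analysed from one deposited table. Read counts per gene are whole numbers that, per the file headers, the authors deposited unnormalized. Per the file headers the authors also deposited FPKM and TPM values; FPKM served for levels per length and TPM was not used. Per the submitters' processing notes, Bowtie2 2.3.4.1, StringTie 1.3.4d and the mm10 build were used, without roles; the counting program is not given in the sources used here, nor is its use of strand. Columns outside the series numbered 0.

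Counts were tested with edgeR 4.0.16 in R 4.3.3 (filterByExpr with a minimum count of 10, TMM, quasi-likelihood, Benjamini-Hochberg over 14109 genes, threshold 0.05); standard errors came from the F statistic. CPM used TMM-scaled library sizes, and log2 CPM a prior count of 2. DESeq2 1.42.0 and limma 3.58.1 were alternatives, and 280 genes had no DESeq2 adjusted p. The edgeR, DESeq2 and voom fits were checked on simulated counts. Floors and stated counting errors cover counting error only, whereas the intervals of fold changes come from the edgeR fit and include the spread between libraries. Litters are not named in the labels, and p-values cover only the spread among these samples. Within groups, chi-square per degree of freedom between libraries was at least 34.9, so each library counted as 1 sample.

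The members and the 17 other gene lists were chosen with earlier results of these data known. All members are named; of each other list those past the threshold, or else the 2 with the smallest p, and for Pax7 and Myog the 3 genes closest in pattern. Names beyond this (Acta1, Adgre1, Calcr, Ccna2, Ckm, Csf1r, Id1, Id3, Mcm2, Mef2a, Mymx, Pcna, Top2a) were chosen after their values were seen. Results of 2 listed genes and the counts of their lists are not reported here.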

Additional observations from a re-analysis of the deposited data

How the results depend on the processing

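No alternative called a member at an adjusted p under 0.05. Of 117 member fold changes under alternatives, 109 kept their direction and 8 turned. Mef2d was at 0.0017 with DESeq2's size factors and 0.0017 with DESeq2. Without single libraries, the log2 fold change of Mef2d ran from -0.053 to 0.034, that of Myf6 from -0.065 (without knockout 2) to 0.22, that of Mef2c from -0.41 (without knockout 1) to 0.17 (without knockout 2) and that of Myog from -0.43 (without control 2) to 0.016 (without control 3). That of Vcam1 ran from 0.43 (without knockout 1) to 0.80 (without knockout 3), with adjusted p from 0.125 to 0.763, that of Myod1 from -0.59 (without knockout 1) to -0.20 (without knockout 3), and that of Pax7 from -0.49 (without knockout 1) to -0.15 (without knockout 3). That of Myf5 ran from 0.065 (without knockout 1) to 0.45 (without knockout 2).

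Over all genes, 8 were called by edgeR, 290 by DESeq2, 5 by limma-voom, 1 with FPKM plus 1 and 1 with FPKM plus 0.1. Without single libraries the count ran from 1 (without knockout 2 or control 3) to 141 (without knockout 3). With the replicate number as a block it was 0, and Vcam1 was at 0.63. No pairing by number was seen: deviations of same-numbered libraries correlated at -0.0082, -0.19 and -0.098, and 0 of 3 knockouts correlated best with their own number. With 3 libraries per group, each centred on its group mean, this check could miss a weak pairing. The cause of these shifts was not tested. Mymk is limited by counting, at 19 counts or fewer per library. For Pax7 in both groups and Myf5 in knockouts, the SD between libraries was larger than the counting error. For Myf5 in controls it was not larger.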

Other observations

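Genes closest to Mef2c in pattern over the 6 libraries were sought after its low value in knockout 2 had been seen. They were Tnnt2 (root mean square difference 0.086), Shroom2 (0.12) and 5930403L14Rik (0.15). Tnnt2, the cardiac troponin T that developing skeletal muscle also uses, stood at 2.71, 0.971 and 2.61 CPM in knockouts 1 to 3 and 2.59, 2.44 and 1.91 CPM in controls 1 to 3. Shroom2, which encodes an actin-binding protein, stood at 1.70, 0.714 and 1.83 CPM in knockouts and 1.93, 1.70 and 1.45 CPM in controls. These likenesses rest on knockout 2 and describe 1 animal.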
